A study of Mus musculus with 12 samples.

Results

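Transcripts of 10 genes of the tumor necrosis factor (TNF) superfamily were followed in the mouse cecum after cauterization, a surgical injury that leads to adhesions. The genes were chosen by name out of 37074 gene names on the array and comprised 7 ligands (Tnf, Lta, Ltb, Tnfsf9, Tnfsf11, Tnfsf14 and Tnfsf15) and 3 receptors (Tnfrsf1a, Tnfrsf1b and Tnfrsf12a). These genes, and the gene lists used below, were chosen with earlier results of these data known. Cecum RNA of C57BL/6 mice was hybridized to 12 one-color arrays, 1 per mouse. The groups were a sham control and cecum taken 3, 12 or 72 h after cauterization with bipolar forceps, with 3 mice each. The methods place the sham tissue directly after the operation, so the effect of cauterization and the time since surgery cannot be told apart. The age of the mice was not given in the sources used here.

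The mice were labelled male, but the arrays went against that label. Xist, the transcript that silences an X chromosome in female cells, was well above background on 12 of 12 arrays, at levels of -0.77 to 0.00. Of 13 probes for the Y-linked genes Ddx3y, Eif2s3y, Uty and Kdm5d, 11 were below background on every array, 1 probe of Uty was above it on 1 array (sham replicate 3), and 1 probe of Kdm5d was above it on all 12. The pattern ran through all 4 groups, so it did not set one group apart from another. Markers of the labelled tissue were present, since all 8 epithelial and all 6 smooth muscle markers examined were well above background on all 12 arrays. Replicate arrays of a group correlated at r = 0.986 to 0.995 over genes well above background on all 12 arrays, with 1 probe per gene. Dimmer probes were left out of these correlations. Between 62.0% and 66.8% of spots per array were well above background, and 0 spots were saturated.

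Ligands of the TNF superfamily are mostly trimeric proteins that are made at the cell surface and can be shed, and they act by clustering their receptors. Receptors with a death domain can trigger cell death, many others recruit adaptor proteins of the TRAF family that switch on NF-kappaB and induce inflammatory genes, and decoy receptors bind ligand without signalling. In the gut, Tnf is best known as a driver of inflammation, and the lymphotoxins Lta and Ltb as organizers of lymphoid tissue.

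Levels are given here as the log2 of a probe's signal minus the log2 of the 75th percentile of its own array, so that 0 marks the 75th percentile and a difference of 1 is 2-fold. A level describes 1 probe, and levels of different genes cannot be ranked against each other. A gene was called when it differed by more than 2-fold with an adjusted p below 0.05 in limma, and each gene was read from its brightest probe. All 10 genes were well above background on all 12 arrays by that probe.

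Most of the family members that changed were higher after cauterization. At 3 h, 5 of 10 were called higher than in the sham cecum (Tnf, Tnfsf9, Tnfsf14, Tnfrsf1b and Tnfrsf12a), where 3.26% of all genes were, and 0 were called lower, against 4.11% of all genes. At 12 h, the same 5 names were called higher, against 4.10% of all genes, and 0 were called lower, against 4.96%. At 72 h, 6 were called higher, with Tnfsf11 added, against 4.55% of all genes. Lta was the 1 member called lower at 72 h, against 4.30% of all genes. The 3 h, 12 h and 72 h medians of the 10 members were 1.43, 1.48 and 1.59 on the log2 scale, beside 0.08, -0.01 and -0.14 over all genes. Tnfrsf1b enters these counts through the probe that is brightest only by its level in the injured mice, and its other probe was called higher at no time. These 3 comparisons share the sham mice, so their counts are not independent of each other.

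Members also differed between time points. From 3 h to 12 h, 3 members were called higher (Tnf, Ltb and Tnfsf14), against 1.89% of all genes, and 2 lower (Tnfsf15 and Tnfrsf12a), against 1.56%. From 12 h to 72 h, 0 were called higher, against 4.33% of all genes, and 2 lower (Tnf and Tnfrsf1b), against 3.19%. Between 3 h and 72 h, Tnfsf14 alone was called higher, against 6.19% of all genes, and Tnfrsf12a alone lower, against 5.51%. The median of the members was 0.37, -0.50 and 0.04 in these comparisons, beside -0.12, -0.14 and -0.26 over all genes. The median of all probes fell by 0.24 from 3 h to 72 h under this scaling, and the differences of the members are to be read relative to that shift.

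The arrays lay on 2 slides, which bears on the 72 h results. Slide 1 held the sham and 3 h arrays and 12 h replicates 1 and 2, and slide 2 held 12 h replicate 3 and the 72 h arrays. Within slide 1, 5 members were called higher than sham at 3 h and 5 at 12 h, as over all arrays. No slide held both sham and 72 h tissue. With the slide as a block, 4 members were called higher and 0 lower at 72 h. They were Tnfsf9, Tnfsf14 and Tnfrsf12a, together with Tnfrsf1a, which was not called without the block. Tnf, Tnfsf11 and Tnfrsf1b were no longer called higher, and Lta no longer lower. From 3 h to 12 h, the block left 1 member called higher and 1 lower, and slide 1 alone left 1 and 0. Between sham, 3 h and 12 h, the block is the same fit as leaving out 12 h replicate 3, so these are not separate checks. From 12 h to 72 h, the block left 0 members called lower. Every block estimate for 72 h, against sham, 3 h or 12 h, rests on the single 12 h array of slide 2. A call lost or gained there, here and in all that follows, says little about the difference.

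Tnf encodes the founding ligand, a cytokine of macrophages and other leukocytes that binds both Tnfrsf1a and Tnfrsf1b. The sham mice had levels of -2.42, -2.53 and -2.18, and the 3 h mice -0.09, 0.38 and 0.52. The 12 h mice had 3.04, 1.35 and 1.86, and the 72 h mice -0.22, -0.30 and 1.21. All 3 sham mice lay below every injured mouse, the 12 h mice lay above all others, and the 3 h and 72 h mice overlapped. Tnf thus rose 6.26-fold at 3 h (log2 difference 2.65, 95% interval 1.61 to 3.69, adjusted p = 0.00381), 22.0-fold at 12 h (4.46, 3.42 to 5.50, adjusted p = 0.000171) and 6.10-fold at 72 h (2.61, 1.57 to 3.65, adjusted p = 0.0039). Another Tnf probe gave log2 differences of 1.6, 3.15 and 1.65 and was called at all 3 times. The rise from 3 h to 12 h was 1.81 on the log2 scale (adjusted p = 0.0403), and from 12 h to 72 h Tnf fell by 1.85 (adjusted p = 0.0221). The slide block ended the 72 h call (log2 difference 2.94, adjusted p = 0.113) and both calls between times, where the differences stayed at 1.93 (adjusted p = 0.0834) and -1.63 (adjusted p = 0.24). The rise from 3 h to 12 h was called in only 4 of 12 fits that each left out 1 array. It was lost without any sham or 3 h mouse and without 12 h replicate 1 or 3, where adjusted p reached 0.115. For this rise, leaving out 12 h replicate 3 is the same fit as the slide block. The fall to 72 h was lost without 12 h replicate 1, 72 h replicate 1 or 72 h replicate 2, where adjusted p reached 0.0813.

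Lta encodes a secreted ligand of lymphocytes that joins Ltb at the cell surface. Its sham levels were -1.60, -2.34 and -1.44, and those at 3 h were -3.44, -2.44 and -2.08. The 12 h levels were -2.15, -2.86 and -2.44, and the 72 h levels -4.23, -3.70 and -2.87. Only the 72 h mice lay wholly below the sham mice. Lta was lower at 72 h by a factor of 3.49 (log2 difference -1.80, 95% interval -2.75 to -0.86, adjusted p = 0.0145). The differences at 3 h (-0.86, adjusted p = 0.18) and 12 h (-0.69, adjusted p = 0.307) did not pass. The 72 h call was lost without sham replicate 1 or without 72 h replicate 1 (adjusted p up to 0.0531), and with the slide block (-1.87, adjusted p = 0.252). It was also lost with the normexp background correction (-0.84), where the difference stayed under 2-fold though its adjusted p of 0.00104 passed.

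Ltb, the membrane-bound partner that directs the complex to the receptor Ltbr, had sham levels of 3.34, 2.81 and 3.70. The 3 h mice had 1.70, 2.47 and 3.24, the 12 h mice 4.35, 3.57 and 4.11, and the 72 h mice 2.85, 3.15 and 3.54. The sham mice overlapped every other group, whereas the 12 h mice lay above all 3 h and 72 h mice. Ltb was not called against sham at any time (log2 differences -0.81, 0.72 and -0.10, with adjusted p = 0.162, 0.229 and 0.867). It rose from 3 h to 12 h by 1.54 (adjusted p = 0.0354). That call was lost in 6 of 12 fits that left out 1 array (adjusted p up to 0.116). The arrays were sham replicate 1, 3 h replicate 1 or 2, 12 h replicate 1 or 3, or 72 h replicate 2. Leaving out 12 h replicate 3 is here the same fit as the slide block (1.49, adjusted p = 0.0989).

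Lymphocyte markers were set beside the lymphotoxin values. Over 8 B cell markers the summed linear level, set to 1 for the sham mean, was 1.17, 0.67 and 1.16 in the sham mice and 0.06, 0.40 and 1.02 at 3 h. It was 1.26, 0.55 and 0.86 at 12 h and 0.22, 0.51 and 0.63 at 72 h, and 0 of the 8 markers were called at any of these times. By group, the sum was 0.49, 0.89 and 0.45 of sham at 3, 12 and 72 h. Ltb differed from sham by -0.81, 0.72 and -0.10 on the log2 scale. From group to group both means moved in the same direction, down at 3 h, up at 12 h and down at 72 h. At 12 h the mean of Ltb lay above sham and the sum below it. Within each of the 4 groups, the same mouse was lowest for the B cell sum, the T and NK cell sum, Lta and Ltb. This was replicate 2 in the sham and 12 h groups and replicate 1 in the 3 h and 72 h groups. Cd79b of the B cell receptor, whose probe has the highest mean of that list, differed from sham by -1.96, -0.10 and -1.09. T and NK cell markers summed to 0.80, 1.21 and 0.75 of sham at 3, 12 and 72 h, with 1 of 11 called lower at 3 h, where 4.11% of all genes were, and 0 called otherwise. The part of these cells in the Lta and Ltb values was not tested. In RNA of whole tissue, fewer cells of a type and less RNA per cell cannot be told apart, here and for every gene below.

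Tnfsf9 encodes the ligand of Tnfrsf9 and costimulates T cells. It lay at -2.68, -3.19 and -2.36 in the sham mice and at -1.02, -1.42 and -1.06 at 3 h. The 12 h levels were -0.42, -0.55 and -0.77, and the 72 h levels -0.87, -1.22 and -0.35. The sham mice were lowest without overlap, the 12 h mice lay above the 3 h mice, and the 72 h mice spanned both. Tnfsf9 rose 2.99-fold at 3 h (log2 difference 1.58, adjusted p = 0.00236), 4.48-fold at 12 h (2.16, adjusted p = 0.000313) and 3.82-fold at 72 h (1.93, adjusted p = 0.000798). No difference between injured groups was called, the largest being 0.58 from 3 h to 12 h (adjusted p = 0.2). With the normexp correction the differences at 3 h (0.78) and 72 h (0.97) fell under 2-fold, though their adjusted p values of 0.00411 and 0.00047 passed.

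Tnfsf14, a ligand of leukocytes for Tnfrsf14 and Ltbr, rose in steps. The sham mice had levels of -3.24, -3.42 and -2.81, and the 3 h mice -2.08, -1.12 and -2.11. Those at 12 h had -0.13, -0.11 and -0.28, and those at 72 h 0.14, -0.65 and -0.78. The sham, 3 h and later mice formed 3 bands without overlap, and the 12 h and 72 h mice shared a band. The rise over sham was 2.60-fold at 3 h (log2 difference 1.38, adjusted p = 0.012), 7.90-fold at 12 h (2.98, adjusted p = 0.000158) and 6.60-fold at 72 h (2.72, adjusted p = 0.000357). Tnfsf14 was also higher at 12 h than at 3 h (1.6, adjusted p = 0.0131) and at 72 h than at 3 h (1.34, adjusted p = 0.00897), while 72 h and 12 h differed by -0.26 (adjusted p = 0.578). The normexp correction brought the 3 h rise (0.59) and both later steps (0.92 and 0.75) under 2-fold. Their adjusted p values of 0.0446, 0.00626 and 0.00326 passed. The slide block ended the call between 3 h and 72 h (1.5, adjusted p = 0.135).

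Tnfsf11 encodes the ligand of Tnfrsf11a that drives the formation of osteoclasts and, in the gut, of antigen-sampling M cells. The sham levels were -3.11, -3.31 and -2.91, and those at 3 h were -2.71, -1.65 and -1.99. The 12 h levels were -1.80, -2.62 and -2.55, and the 72 h levels -1.59, -2.00 and -1.86. Every injured mouse lay above every sham mouse, and the 3 injured groups overlapped. The rise passed at 72 h (2.45-fold, log2 difference 1.29, adjusted p = 0.0115). At 3 h it stayed just under 2-fold (1.99-fold, adjusted p = 0.0386), and at 12 h adjusted p was 0.0831. A dimmer probe of Tnfsf11, above background on 2 of 3 sham arrays and on all others, was called at all 3 times (1.28, 1.41 and 1.70). The 72 h call was lost with the slide block (1.63, adjusted p = 0.141) and with the normexp correction (0.43). With normexp it was under 2-fold, though its adjusted p of 0.00835 passed. Without 3 h replicate 1, the 3 h difference was called (1.29).

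Tnfsf15, a ligand of endothelial and myeloid cells that costimulates T cells through Tnfrsf25, had its highest mean at 3 h. The sham mice were at -1.20, -1.53 and 0.35, and the 3 h mice at 1.84, 0.13 and 0.06. The 12 h mice were at -1.24, -1.35 and -1.84, and the 72 h mice at -1.25, -0.56 and -0.73. The sham group was spread widely by replicate 3, which overlapped the 3 h mice, and the 3 h mice lay above all 12 h and 72 h mice. Against sham no time was called (log2 differences 1.47, -0.68 and -0.05, with adjusted p = 0.0933, 0.457 and 0.954). Without sham replicate 3, the 3 h difference was 2.05 and was called (adjusted p = 0.0224). From 3 h to 12 h Tnfsf15 fell by 2.15 (adjusted p = 0.0395), and another probe fell by 2.14 (adjusted p = 0.0376). This fall was lost with the slide block (-1.97, adjusted p = 0.118), which here is the same fit as leaving out 12 h replicate 3. It was called in 4 of 12 fits that left out 1 array, and was lost without any 12 h mouse, sham replicate 1, 3 h replicate 1 or 2, or 72 h replicate 2 or 3 (adjusted p up to 0.118).

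**Figure D1:**
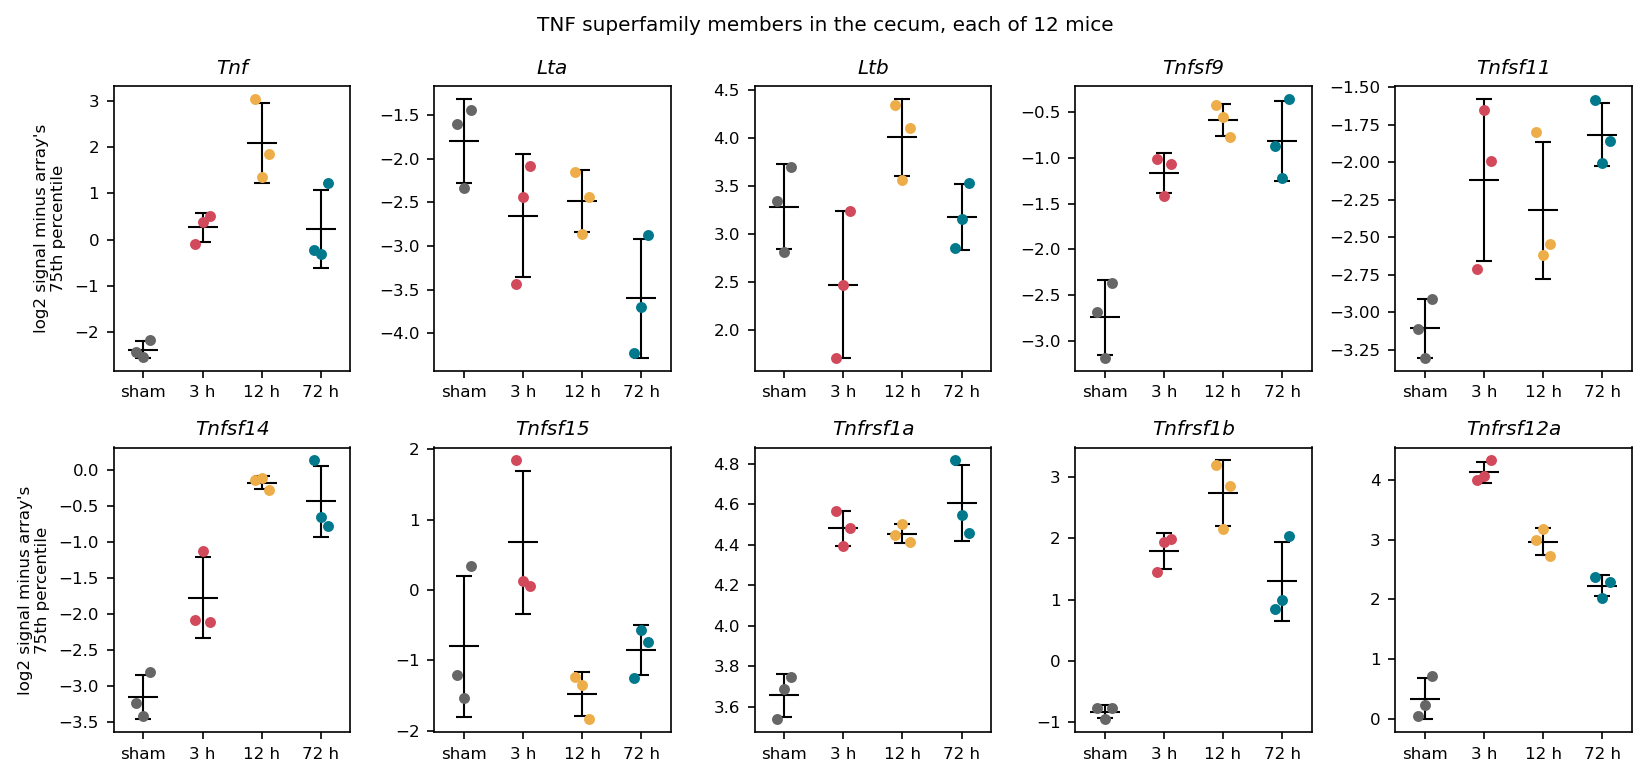
Levels of the 10 TNF superfamily genes in each mouse, with the group on the x axis and the log2 signal minus the array's 75th percentile on the y axis. Each point is 1 mouse, bars are means and whiskers SDs of 3 mice. The 12 h mice have the highest Tnf levels (1.35 to 3.04), and the 3 h mice the highest Tnfrsf12a levels (4.0 to 4.33).

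Among the receptors, Tnfrsf12a changed most at 3 h. It encodes the small receptor of the ligand Tnfsf12, and is known as a gene switched on in injured and regenerating tissue. Its levels were 0.05, 0.24 and 0.72 in the sham mice and 4.0, 4.07 and 4.33 at 3 h. They were 2.99, 3.18 and 2.73 at 12 h and 2.37, 2.03 and 2.29 at 72 h. None of the 4 groups overlapped, and they ranked 3 h, 12 h, 72 h and sham from high to low. Tnfrsf12a rose 13.9-fold at 3 h (log2 difference 3.8, 95% interval 3.37 to 4.23, adjusted p = 8.38e-06), 6.19-fold at 12 h (2.63, adjusted p = 2.34e-05) and 3.72-fold at 72 h (1.89, adjusted p = 0.000194). It fell by 1.17 from 3 h to 12 h (adjusted p = 0.00701) and by 1.90 from 3 h to 72 h (adjusted p = 0.000147). The step from 12 h to 72 h, -0.74 (adjusted p = 0.0259), was under 2-fold. All 5 of these calls held in all 12 fits that left out 1 array and with the slide block, but within slide 1 alone the step from 3 h to 12 h gave adjusted p = 0.0512.

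Tnfrsf1b encodes the receptor without a death domain, found mainly on leukocytes and endothelium. Its levels were -0.76, -0.96 and -0.78 in sham mice and 1.45, 1.93 and 1.99 at 3 h. They were 3.20, 2.16 and 2.86 at 12 h and 0.85, 0.99 and 2.04 at 72 h. The sham mice were lowest and the 12 h mice highest without overlap, and 72 h replicate 3 reached the 3 h mice. Tnfrsf1b rose 6.15-fold at 3 h (log2 difference 2.62, adjusted p = 0.00071), 11.9-fold at 12 h (3.57, adjusted p = 9.21e-05) and 4.36-fold at 72 h (2.13, adjusted p = 0.00203). From 12 h to 72 h it fell by 1.44 (adjusted p = 0.0154). The slide block ended the 72 h call (1.95, adjusted p = 0.139) and the fall (-1.56, adjusted p = 0.122), and the fall was also lost without 12 h replicate 1, 72 h replicate 1 or 72 h replicate 2 (adjusted p up to 0.0594). The probes of Tnfrsf1b disagreed. The rise was read from the probe for the RefSeq transcript, while a probe for another transcript differed from sham by 0.23, 0.24 and -0.54 and was called at no time. In the sham mice that other probe was the brighter one (0.22, 0.57 and 0.24), so the probe of the rise has the highest mean only through the injured mice, and the calls of Tnfrsf1b depend on this choice. With the mean of both probes the differences were 1.43, 1.90 and 0.79, of which the first 2 were called and the 72 h difference was under 2-fold.

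Tnfrsf1a encodes the death domain receptor that most cell types carry. Its levels were 3.54, 3.69 and 3.75 in sham mice and 4.57, 4.40 and 4.48 at 3 h. They were 4.45, 4.50 and 4.41 at 12 h and 4.82, 4.55 and 4.46 at 72 h. Every injured mouse lay above every sham mouse, and the injured groups overlapped. The differences of 1.77-fold, 1.74-fold and 1.93-fold had adjusted p values of 0.00128, 0.00113 and 0.00059, but each stayed under 2-fold and was not called. Another Tnfrsf1a probe gave 1.88-fold, 1.83-fold and 1.87-fold. At 72 h the gene passed 2-fold with quantile normalization (log2 difference 1.08), with the normexp correction (1.01), with the slide block (1.01, adjusted p = 0.042) and without 72 h replicate 3 (1.03).

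**Figure D2:**
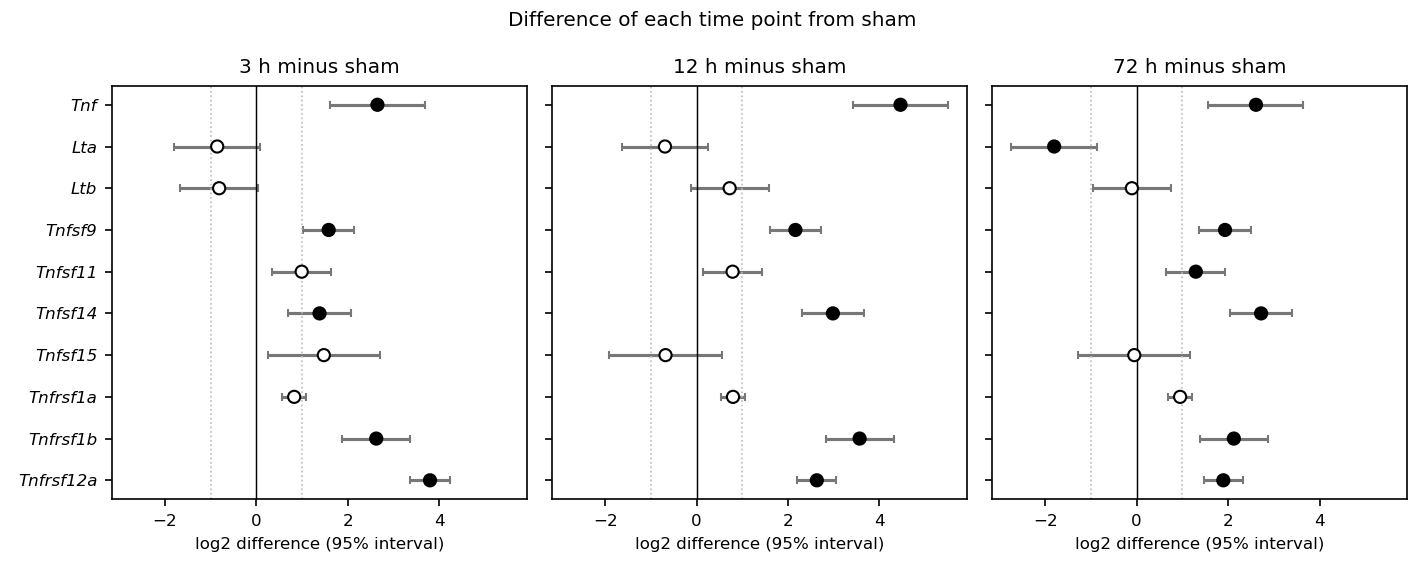
Log2 differences of the 10 genes from the sham cecum at 3, 12 and 72 h, with 95% intervals. Filled points were called (more than 2-fold and adjusted p below 0.05), and dotted lines mark 2-fold. Tnf at 12 h (4.46) and Tnfrsf12a at 3 h (3.8) lie farthest to the right, and Lta at 72 h (-1.80) is the 1 called difference on the left.

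The known partners of these genes divided into those that rose and those that stayed under the thresholds. Tnfrsf9, the receptor of Tnfsf9 on activated T cells, was at -2.92, -2.97 and -2.23 in sham mice and between -1.16 and 0.66 in all injured mice, without overlap. It rose by 1.93 at 3 h (adjusted p = 0.00318), 2.13 at 12 h (adjusted p = 0.00147) and 2.74 at 72 h (adjusted p = 0.000505). Tnfsf9 and its receptor were thus both called at all 3 times. Tnfrsf11b, the soluble decoy receptor that captures Tnfsf11, rose by 2.08, 2.45 and 1.38 (adjusted p = 1.9e-05, 6.33e-06 and 0.000146). Tnfrsf11a, the signalling receptor of Tnfsf11, was not called and differed by 0.06, -0.04 and -0.67. Ltbr, which binds the lymphotoxin complex and Tnfsf14, differed by 0.47, 0.35 and 0.14, and Tnfrsf14, the other Tnfsf14 receptor, by -0.61, 0.05 and 0.01. Neither was called. Tnfrsf25, the receptor of Tnfsf15, differed by -0.46, -0.20 and -0.09 and was not called. Tnfsf12, the ligand of Tnfrsf12a, differed from sham by -0.69, -0.37 and 0.57, under 2-fold each time, while its receptor was called at all 3 times. Tnfsf12 was higher at 72 h than at 3 h by 1.26 (adjusted p = 0.00012), where Tnfrsf12a was lower.

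The wider family holds 17 ligands and 28 receptors on the array, the members included. Of the 17 ligands, 4 were called higher than sham at each time, beside 3.26%, 4.10% and 4.55% of all genes. At 3, 12 and 72 h, 1, 0 and 2 were called lower, beside 4.11%, 4.96% and 4.30%. Of the 2 at 72 h, Cd70 was above background in neither the sham nor the 72 h mice, so its call carries no measured difference. The ligands called at 3 h in either direction ranged from 4 to 8 when 1 array was left out. Beyond the members, the others were Tnfsf18, Tnfsf13b and Eda. Tnfsf18, a T cell costimulator, was above background only at 3 h, where it was at least 2.15-fold higher than sham (adjusted p = 0.00523). A bound of this kind sets the measured level against the dimmest signal that still stood above background. Tnfsf13b, the survival factor of B cells, rose by 1.38 at 12 h (adjusted p = 2.57e-05) and was 1.95 higher at 12 h than at 3 h. Eda, a ligand of skin appendages, was lower at 3 h (-1.33, adjusted p = 0.0207), where it was above background on only 2 of 3 arrays. The median difference of the 17 ligands was 0.31, 0.23 and 0.25.

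Of the 28 receptors, 4, 6 and 7 were called higher at 3, 12 and 72 h and 1, 1 and 0 lower, beside the same shares of all genes. The counts of lower receptors, at most 3.57% of the list, did not exceed those shares. Tnfrsf23, a decoy receptor for the death ligand Tnfsf10, rose by 1.72 at 12 h (adjusted p = 0.000656) and 2.76 at 72 h (adjusted p = 6.11e-05). Its relative Tnfrsf26 rose by 1.75 and 1.17 at these times. Eda2r was at least 1.70-fold higher at 72 h than in sham tissue, where it was not above background. Edar was at least 1.53-fold lower at 3 h, and Tnfrsf17, a receptor of plasma cells, was lower at 12 h (-1.18, adjusted p = 0.00785). The median difference of the 28 receptors was 0.16, 0.34 and 0.09, closer to the medians over all genes than that of the 10 members.

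Part of the signalling machinery behind these receptors was called. Of 30 adaptors, kinases, ubiquitin enzymes and inhibitors, 3 were called higher at 3 h, 5 at 12 h and 1 at 72 h, and 0 lower at any time, with medians of 0.28, 0.37 and -0.03. The shares called higher were 10%, 16.7% and 3.33%, beside 3.26%, 4.10% and 4.55% of all genes. Tnfaip3, the ubiquitin-editing inhibitor of NF-kappaB signalling, was called at all 3 times (2.71, 3.10 and 1.54, with adjusted p = 0.00124, 0.000413 and 0.0188). Birc3, a ubiquitin ligase of the receptor complex, rose by 1.61 and 1.46 at 3 h and 12 h, and Casp8, the initiator caspase of death receptors, by 1.35 and 1.03. Traf1, an adaptor of Tnfrsf1b, rose at 12 h (1.70, adjusted p = 0.00558), as did Ripk3, a kinase of necroptosis (1.0, adjusted p = 0.00263). Tnfaip3, Birc3 and Traf1 are also on the list of genes induced by TNF below, so the counts of these lists overlap. From 12 h to 72 h, Tnfaip3, Mlkl and Casp8 were called lower (-1.57, -1.46 and -1.28), 3 of 30 beside 3.19% of all genes, a count that ranged from 2 to 5 when 1 array was left out. The receptor signalling count at 72 h was 0 with the slide block.

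Genes that control Tnf mRNA or its release were also examined. Of 8, 3 were called higher at 3 h, 3 at 12 h and 1 at 72 h, where 3.26%, 4.10% and 4.55% of all genes were, and 0 lower. Map3k8, a kinase needed for Tnf production in macrophages, rose by 2.61, 3.73 and 2.54 (adjusted p = 0.00155, 0.000158 and 0.00168). Zfp36, which binds Tnf mRNA and speeds its decay, rose by 1.46 and 1.87 at 3 h and 12 h and was lower at 72 h than at 12 h (-1.13, adjusted p = 0.00957). It was the 1 gene of 8 called between 12 h and 72 h, beside 3.19% of all genes called lower. That count ranged from 0 to 2 when 1 array was left out. Timp3, an inhibitor of the sheddase Adam17, rose at 3 h (1.16), and Rhbdf2, which brings that sheddase to the cell surface, at 12 h (1.40). Adam17 itself, which cuts Tnf from the membrane, differed by 0.02, 0.73 and 0.45 and was not called.

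Most genes known to be induced by TNF were called higher. Of 23, 19 were called higher at 3 h, 20 at 12 h and 16 at 72 h, against 3.26%, 4.10% and 4.55% of all genes, and 0 lower, against 4.11%, 4.96% and 4.30%. The medians were 2.26, 2.29 and 1.31, or 2.17, 2.17 and 1.24 with genes below background in sham tissue set to their bounds. Many of these genes also respond to other cytokines and to microbial products, and the part of Tnf in their change was not tested. Cxcl2, a neutrophil chemokine not well above background in any sham mouse, was at least 295-fold higher at 3 h, 927-fold at 12 h and 278-fold at 72 h. Cxcl1, of the same kind, rose by 8.58, 7.96 and 7.16 on the log2 scale, and Ccl2, which attracts monocytes, by 5.84, 5.97 and 4.41. Ptgs2, the inducible enzyme of prostaglandin synthesis, rose by 3.77, 4.96 and 4.0, and Tnfaip6, a hyaluronan-binding protein, by 3.91, 3.58 and 3.5. Sele, an endothelial adhesion molecule, was at least 3.5-fold higher at 3 h, 2.10-fold at 12 h and 2.08-fold at 72 h. From 12 h to 72 h, 6 of the 23 were called lower (Cxcl2, Gadd45b, Tnfaip3, Ccl2, Lif and Nfkbia, by -1.74 to -1.13) and 0 higher, beside 3.19% and 4.33% of all genes. That total ranged from 1 to 7 when 1 array was left out. Lif was above background on only 1 of 3 arrays at 72 h, so the size of its fall is uncertain. Between 3 h and 12 h, 1 was called higher, beside 1.89% of all genes, or 1 to 2 when 1 array was left out, and the median was -0.02. Between 3 h and 72 h, 9 were called lower and 1 higher, beside 5.51% and 6.19% of all genes, and this total ranged from 5 to 11 when 1 array was left out. With the slide block, 9 of the 23 were called at 72 h against sham and 0 between 12 h and 72 h.

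Genes known to respond to lymphotoxin were examined in the same way. Of 7, 2 were called higher at 3 h, 1 at 12 h and 1 at 72 h, beside 3.26%, 4.10% and 4.55% of all genes, and 0 lower, with medians of -0.27, 0.19 and -0.10. Nfkb2, a subunit of the noncanonical NF-kappaB pathway, rose by 1.68, 1.62 and 1.01, and its partner Relb by 1.18 at 3 h. The chemokines of lymphoid tissue Cxcl13, Ccl19 and Ccl21a and the vessel molecules Madcam1 and Glycam1 were not called against sham at any time.

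**Figure D3:**
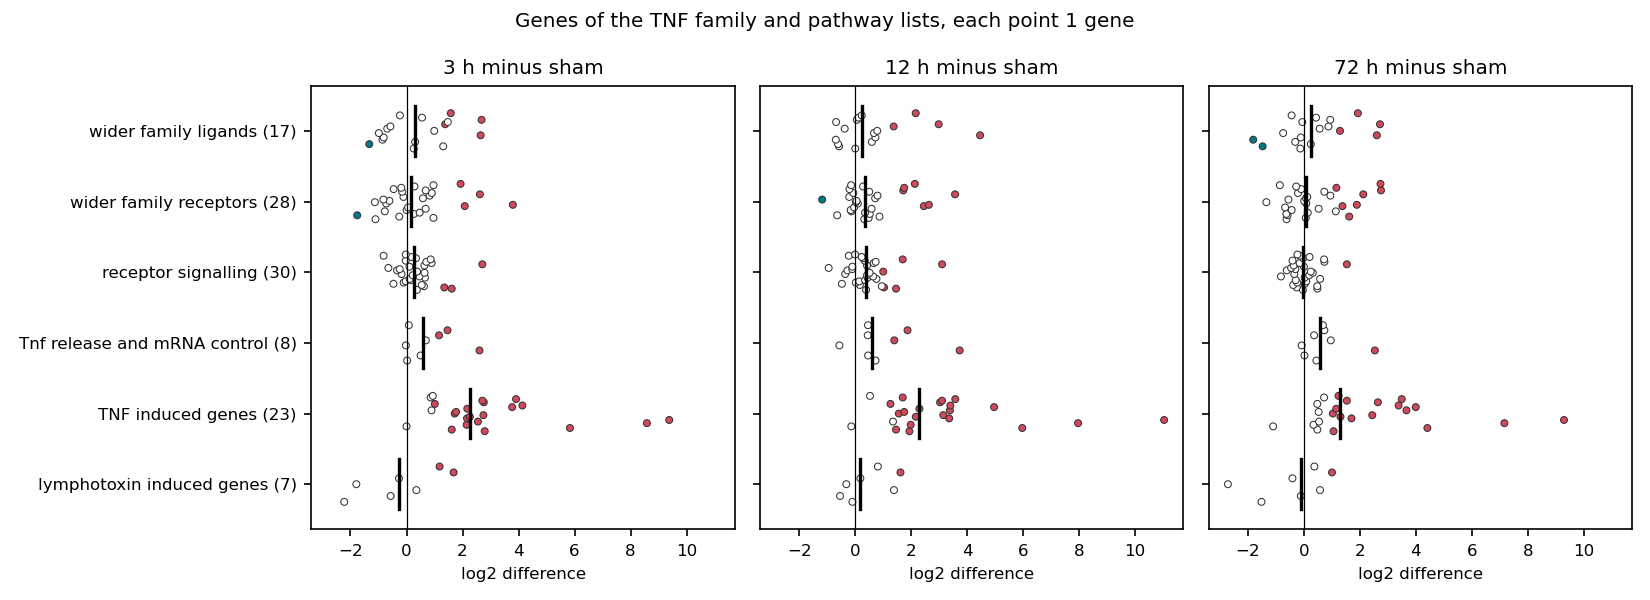
Log2 differences from sham of each gene in the wider ligand and receptor lists and the signalling, Tnf control and target lists, at 3, 12 and 72 h. Each point is 1 gene, red was called higher, blue called lower, white was not called, and black bars are list medians. The median of the TNF-induced genes is 2.26, 2.29 and 1.31, that of receptor signalling 0.28, 0.37 and -0.03.

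Markers of the cell types of the injured cecum also moved. Neutrophil markers summed to 5.50, 9.51 and 5.39 times the sham mean at 3, 12 and 72 h. The sum was highest at 12 h, as were the group means of Tnf, Ltb, Tnfsf9, Tnfsf14 and Tnfrsf1b. The other members had their highest means elsewhere, Tnfrsf12a and Tnfsf15 at 3 h, Tnfsf11 and Tnfrsf1a at 72 h, and Lta in the sham mice. At these times, 8, 10 and 7 of 11 markers were called higher, where 3.26%, 4.10% and 4.55% of all genes were. S100a9 and S100a8, abundant neutrophil proteins, rose by 10.06 and 10.79 at 3 h. S100a8 was above background on only 2 of 3 sham arrays, so the size of its rise is uncertain. By contrast, Csf3r, whose probe has the highest mean of that list over the 12 arrays, differed by -0.44, -0.34 and -0.40. Its mean sham level was 6.37, beside -1.92 for S100a9 and -4.53 for S100a8, so its probe weighs heavily in the sham sum. The size of the summed ratio is therefore not a measure of neutrophil numbers. Macrophage markers summed to 0.78, 0.98 and 2.96, with the highest mean signal at the probe of Csf1r, and 8 of 9 were called higher at 72 h. At 3 h 0 were higher and 1 lower, and at 12 h 2 were higher and 1 lower. Fibroblast markers summed to 0.73, 0.60 and 3.73, with the highest mean at that of Dcn. Of 6, 0 were called at 3 h, 3 lower at 12 h and 4 higher at 72 h. Endothelial markers summed to 0.79, 0.73 and 1.46, with the highest mean at that of Vwf, and 2 of 6 were called higher at 72 h.

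Mesothelial markers summed to 2.05, 2.94 and 4.48, with the highest mean at the probe of Pdpn, although 3 of 7 were called lower and 1 higher at 3 h and at 12 h, and 3 higher at 72 h. Epithelial markers summed to 1.17, 0.96 and 0.60, with the highest mean over all arrays at that of Krt8, and 2 of 8 were called lower at 72 h. Smooth muscle markers summed to 0.56, 0.37 and 0.38, with the highest mean at that of Acta2, and 1, 6 and 5 of 6 were called lower. The shares of all genes beside these counts are 3.26%, 4.10% and 4.55% higher and 4.11%, 4.96% and 4.30% lower, here and for the lists before. All markers of every list were above background on at least 1 array. The part of these cell types in the values of the TNF superfamily genes was not tested.

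Each member was set beside the genes whose levels ran most like its own over the 12 arrays, among 20818 genes well above background on all of them. The arrays share the 4 groups, so r mainly follows the group pattern, and it is given as a description. Tnf ran closest to the kinase genes Pim1 (r = 0.991), Mapkapk2 (r = 0.990) and Map3k8 (r = 0.987). Tnfrsf1b ran closest to Ccrl2 (r = 0.990), Stx11 (r = 0.989) and Gadd45b (r = 0.988), and Tnfrsf12a to Ch25h (r = 0.994), Stat3 (r = 0.991) and Cebpd (r = 0.989). For Tnfsf14 these were Aqp9 (r = 0.986), Entpd1 (r = 0.982) and Bend4 (r = 0.979), and for Tnfsf9 Fam49b (r = 0.971), Cebpb (r = 0.969) and Cd47 (r = 0.967). Ltb was nearest to the leukocyte genes Myo1g (r = 0.972), Rasgrp1 (r = 0.963) and Scimp (r = 0.947), and Lta to Cpne5 (r = 0.937). Tnfrsf1a was nearest to Mdfi (r = 0.982) and Tpm4 (r = 0.972), Tnfsf11 to Arid5b (r = 0.928), Zyx (r = 0.912) and Slc4a11 (r = 0.905), and Tnfsf15 to Tmprss7 (r = 0.903) and Kcne3 (r = 0.902).

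Several members are neighbors in the genome. In the mm9 coordinates of the array, the probes of Ltb (chr17:35333097-35333156), Tnf (chr17:35336795-35336854) and Lta (chr17:35340275-35340334) lie side by side, with Ltb on the plus strand and the others on the minus strand. Tnf rose at all 3 times while its neighbor Lta was called lower at 72 h. Tnfsf9 (chr17:57247062-57247121, plus strand) and Tnfsf14 (chr17:57329192-57329251, minus strand) lie close together farther along the chromosome, and both rose at all 3 times. The probe of Cd70 (chr17:57285465-57285524, minus strand) lies between them, and Cd70 was not called higher than sham at any time. Tnfrsf12a lies on the same chromosome (chr17:23812746-23812805, minus strand). The other probes lie on chromosome 14 for Tnfsf11 (chr14:78677444-78677503), chromosome 4 for Tnfsf15 (chr4:63388134-63388193) and Tnfrsf1b (chr4:144804304-144804363), and chromosome 6 for Tnfrsf1a (chr6:125312376-125312435). Exons were not assigned.

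Promoter windows of 9 of the 10 members, all but Tnfsf9, were taken from RefSeq (GRCm38.p6), each from 250 bases before to 50 after the transcript start. The NF-kappaB consensus, searched on both strands, was found in the window of 1 of 9, Ltb, where it began 87 bases before the start, and in 8.5% of 32851 windows of all genes. The AP-1 motif TGANTCA was found in the window of 1 of 9, Tnfsf14, 160 bases before the start, and in 7.8% of all windows. The windows of Tnf and the other members held neither motif in these letters, which says nothing of other forms of the sites or of sites elsewhere. The 250 bases before the start are printed for the 3 members that were called higher at 12 h than at 3 h, Tnf (chr17:35202008-35202257, minus strand), Ltb (chr17:35194257-35194506, plus strand) and Tnfsf14 (chr17:57194182-57194431, minus strand), 5′ to 3′ with the motif found in capitals.
Tnf: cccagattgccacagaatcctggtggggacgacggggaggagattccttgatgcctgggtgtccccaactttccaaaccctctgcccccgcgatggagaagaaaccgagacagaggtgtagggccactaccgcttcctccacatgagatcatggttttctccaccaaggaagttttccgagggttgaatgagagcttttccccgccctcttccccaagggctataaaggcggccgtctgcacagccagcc
Ltb: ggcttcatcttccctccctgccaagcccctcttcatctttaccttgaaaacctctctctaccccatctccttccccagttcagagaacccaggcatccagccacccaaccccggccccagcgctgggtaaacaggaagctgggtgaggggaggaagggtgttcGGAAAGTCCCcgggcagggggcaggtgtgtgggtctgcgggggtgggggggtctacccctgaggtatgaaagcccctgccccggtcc
Tnfsf14: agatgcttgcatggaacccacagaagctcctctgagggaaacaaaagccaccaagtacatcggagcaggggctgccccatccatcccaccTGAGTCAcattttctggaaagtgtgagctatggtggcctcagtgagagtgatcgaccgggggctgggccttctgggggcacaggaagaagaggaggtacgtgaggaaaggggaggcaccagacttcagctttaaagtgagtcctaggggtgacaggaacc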

How the data were processed

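As deposited, the spot intensities are linear and, per the file headers, had a fitted background surface removed, spatial detrending applied and surrogates set for dim spots in Agilent Feature Extraction 11.5.1.1. The authors' log2 table, set beside these intensities, proved to be scaled to the 75th percentile and centered on each probe, and its column medians were 0.01, -0.0002, 0.03, 0.05, 0.13, 0.08, -0.08, -0.0043, 0.06, -0.18, -0.05 and -0.14 for sham, 3 h, 12 h and 72 h replicates in order.

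The values used here start from the intensities: log2, outlier spots left out, spots of a probe averaged, minus the array's 75th percentile over 56605 probes that are not controls. The percentile over spots, in which 300 probes printed 10 times each weigh more, was added as an alternative after the data were seen. Groups were taken from the sample labels. The 6 comparisons were fitted over 12 arrays with limma 3.58.1 in R 4.3.3 (2-sided moderated tests, Benjamini-Hochberg adjustment over all probes). A gene was its probe with the highest mean. Of 185 listed gene names, 182 were found on the array.

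The members and lists were chosen with earlier results of these data known. Genes named were the members, their partners, up to 6 called genes per list and comparison, leading and contrary markers, the 3 genes most like each member, and sex genes; not all are named here. Some genes were named for their role after their values were seen (Adam17, Cxcl13, Ccl19, Ccl21a, Madcam1, Glycam1, Cd70). Alternatives covered normalization, background, slide, probe choice, tests and leaving out each array.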

Additional observations from a re-analysis of the deposited data

Results flagged for a closer look

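The differences below are those between injured groups that passed the test of the difference itself in limma. From 3 h to 12 h, Tnf differed by 1.81, Ltb by 1.54, Tnfsf14 by 1.6, Tnfsf15 by -2.15 and Tnfrsf12a by -1.17 on the log2 scale. From 12 h to 72 h, Tnf differed by -1.85 and Tnfrsf1b by -1.44. From 3 h to 72 h, Tnfsf14 differed by 1.34 and Tnfrsf12a by -1.90. With the slide as a block, 6 of these 9 were not called: Tnf, Ltb and Tnfsf15 from 3 h to 12 h, Tnf and Tnfrsf1b from 12 h to 72 h, and Tnfsf14 from 3 h to 72 h. The block estimates for 72 h rest on the single 12 h array of slide 2. Groups of 3 mice were too small to be searched for single outlying mice.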

How the results depend on the processing

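Of the 26 called differences of members, all kept their direction in 745 refits, in 651 of which they were still called. In many of these refits the direction could not change, because they return the same log2 difference as the main fit. Among them are the fits with no fold threshold, the trend and robust variance model, or only the 2 groups compared. The replicate number as a block, the paired t-tests and leaving out an array outside the comparison also return it. The cause of a lost call was not tested. Members called lower from 3 h to 12 h were 1 with quantile normalization. With the normexp correction, 3 members were called higher at 3 h and 0 lower at 72 h against sham, and 0 higher and 2 lower from 3 h to 72 h. Members called lower from 3 h to 72 h were also 2 with dim probes left out, with a floor on dim probes and with the trend and robust variance model. With the slide as a block, 0 were lower at 72 h against sham, 1 higher and 1 lower from 3 h to 12 h, 0 lower from 12 h to 72 h and 0 higher from 3 h to 72 h. With only the 2 groups compared in the fit, 1 was higher and 1 lower from 3 h to 12 h, and 0 lower from 12 h to 72 h. A paired t-test was also run, which the paper names for comparing 2 groups in general and not for the arrays. With adjustment it called 0 members in every comparison, and 0 or 1 of all genes. Without adjustment, an alternative chosen after seeing the data, it called 4 members higher at 3 h, 5 at 12 h and 6 at 72 h against sham, 1 higher from 3 h to 12 h, 0 lower from 12 h to 72 h and 0 higher from 3 h to 72 h. Fits within a slide and the percentile over spots were also chosen after seeing the data. Slide 1 gave 1 higher and 0 lower from 3 h to 12 h, and slide 2, which holds a single 12 h array and gives the same estimates as the block, gave 0 lower from 12 h to 72 h.

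Leaving out 1 array at a time, members called higher against sham ranged from 5 to 6 at 3 h and 6 to 7 at 72 h and stayed at 5 at 12 h, and those called lower ranged from 0 to 1 at 72 h. Higher and lower members ranged from 1 to 3 and 1 to 2 from 3 h to 12 h, and from 1 to 2 and 1 to 2 from 3 h to 72 h, and lower ones from 0 to 3 from 12 h to 72 h. Of the 26 called differences, 20 were called in all 12 such fits, and 7 of the 34 others were gained in at least 1. Calls of the lists against sham that moved by more than 1.5 times were those of the wider ligands at 3 h (4 to 8), receptor signalling at 3 h (3 to 5) and 72 h (0 to 2), genes of Tnf release at 72 h (1 to 2) and lymphotoxin-induced genes at 72 h (0 to 2). With the slide as a block, 17 list counts over the 6 comparisons moved by more than 1.5 times and 19 did not.

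Signs turned only for differences near 0 that were not called. Tnfrsf1a from 3 h to 12 h was 0.11 with quantile normalization, 0.0281 with the percentile over bright probes and 0.008 with normexp, and -0.072 to 0.0148 leaving out arrays. Tnf from 3 h to 72 h was 0.0917 with bright probes, 0.025 with normexp, 0.30 with the slide block, 0.0076 with the mean of all probes and -0.53 to 0.23 leaving out arrays. Tnfsf15 at 72 h against sham was 0.49 with the slide block, 0.0733 with the mean of probes and -0.42 to 0.52 leaving out arrays. Normexp gave -0.0231 for Lta from 3 h to 12 h and -0.0053 for Tnfsf11 from 3 h to 72 h. Leaving out arrays gave -0.22 to 0.45 for Lta and -0.50 to 0.032 for Tnfsf11 from 3 h to 12 h, and -0.34 to 0.10 for Ltb at 72 h against sham.

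Replicate numbers did not pair the mice, since correlations of same-numbered deviations from the group means ran from -0.40 to 0.26. With the replicate number as a block, 2 members were called higher and 1 lower from 3 h to 12 h, Tnf (adjusted p = 0.0562) and Tnfsf15 (adjusted p = 0.0755) being lost, and it changed no other call of a member.

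Counts over all genes were 2732, 3360, 3282, 1282, 2788 and 4339 in the 3 sham comparisons and those of 12 h with 3 h, 72 h with 12 h and 72 h with 3 h. They were 838, 1327, 1258, 573, 1065 and 1570 with normexp, 6933, 7850, 7679, 3327, 6872 and 14289 with no fold threshold, and 1152, 1225 and 1152 with the slide block for 72 h with sham, 12 h and 3 h. Slide 1 gave 837 for 12 h with 3 h, and slide 2 gave 17 for 72 h with 12 h. The higher share of calls was 44.3%, 45.3% and 51.4% against sham and 75.3%, 62.2% and 69.2% with normexp. It was 62.8% at 72 h with quantile normalization, and 65.1% rather than 52.9% for 72 h with 3 h by bright probes. Signal over background limits the dim probe of Tnfsf11 and the listed genes given as bounds. It also limits S100a8 in sham tissue, Eda at 3 h and Lif at 72 h, which were above background on only some arrays of those groups.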
